A study of Mus musculus with 24 samples.

Results

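Tcf7l2 encodes a transcription factor with an HMG box, and the peaks described here are those that chromatin immunoprecipitation sequencing (ChIP-seq) with Foxa or Flag antibodies gave over a window assigned to this gene. The window spans chr19:55800000-56020000 (mm9). Its members were chosen by position, as all peaks overlapping the window, and the window itself was selected on a run of 7 peaks in the Foxa2 list without EGS. Of 26332 peaks in 14 lists, 20 lay in the window, and they merged into 12 regions. Counts, ranks and overlaps in the window are therefore a description, and no test was run on them. The gene name comes with the window. In the GRCm38.p6 gene order Tcf7l2 follows Vti1a and precedes Habp2 among protein-coding genes, but that build differs from mm9. Whether a given peak is intronic, exonic or in a promoter of Tcf7l2 was not analysed here.

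The lists came from induced hepatocyte-like (iHep) cells and adult hepatocytes of C57BL/6 mice. The iHep lines were derived from fibroblasts of day 13.5 embryos. Line 4a1 was infected with Foxa1 and Hnf4alpha, line 4a2 with Foxa2 and Hnf4alpha, and line 4a3 with Foxa3 and Hnf4alpha, so all 3 lines received Hnf4alpha. Each line was profiled with the antibody to its own Foxa protein in 2 libraries with EGS in their title and 1 without (non-EGS). The labels do not spell out EGS. A Flag antibody, which binds an epitope tag, was used in 1 EGS library each of lines 4a2 and 4a3, and the labels do not name the tagged protein. Hepatocytes from 10-week-old mice gave 1 EGS library for each of the 3 Foxa antibodies, so they have no replicate. Line, introduced factor and antibody cannot be told apart in the iHep cells. The Foxa2 non-EGS list, which supplied the 7 peaks, is a single library and also has no replicate of its kind.

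Foxa proteins are forkhead transcription factors that can bind DNA in closed chromatin and open it for other factors, and they act throughout liver development. Tcf7l2 is a nuclear partner of beta-catenin and carries the transcriptional output of Wnt signalling. In the adult liver, Wnt signalling is known for setting the gene expression of hepatocytes around the central vein.

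Sequence of the peaks themselves needs the mm9 genome, which was not used here. The RefSeq promoter table (GRCm38.p6) lists 2 transcription start sites for Tcf7l2, and the 250 bases before each are shown, 5′ to 3′, as the gene's own regulatory sequence. Capitals mark matches to 4 chosen forms of the forkhead core motif, which are TGTTTAC and TGTTTAT with their variants TATTTAC and TATTTAT, searched on both strands. Other forms of the motif were not searched.

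Tcf7l2 first start: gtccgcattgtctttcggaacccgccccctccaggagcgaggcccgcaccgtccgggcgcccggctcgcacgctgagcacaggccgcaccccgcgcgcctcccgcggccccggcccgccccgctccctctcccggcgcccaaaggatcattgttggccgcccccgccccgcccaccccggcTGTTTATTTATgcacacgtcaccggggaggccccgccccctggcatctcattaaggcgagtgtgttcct

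Tcf7l2 second start: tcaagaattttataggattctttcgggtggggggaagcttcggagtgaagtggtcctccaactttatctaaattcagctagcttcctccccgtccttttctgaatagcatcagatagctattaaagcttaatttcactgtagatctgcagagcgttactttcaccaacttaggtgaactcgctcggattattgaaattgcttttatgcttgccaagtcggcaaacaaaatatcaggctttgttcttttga

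Before the first start, TGTTTAT and TATTTAT overlapped, at 69 to 63 and 65 to 59 bases upstream on the gene's strand. Before the second start there was no match to the 4 motifs searched, which leaves other forms of the forkhead motif unexamined. At least 1 of the 4 motifs was present in 13.6% of 32851 promoter windows of the same length. The motifs were chosen after the Tcf7l2 sequences were seen, so this share is no test of the matches. A match describes the letters only. No list was placed relative to these starts, because the builds differ.

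The 20 peaks fell into 2 places in the window, with a long stretch between them that held no peak. Of the 20, 14 lay in the 7-peak cluster, chr19:55926355-55951606, and the other 6 lay at the left end, between 55815579 and 55819594. Peaks were present in 8 of the 14 lists. The Foxa2 non-EGS list held 8 of its 11408 peaks there. The Foxa3 non-EGS list held 5 of 4317, Foxa3 EGS replicate 1 held 2 of 1246, and Foxa2 EGS replicate 2 held 1 of 1040. Each of the 3 Foxa1 lists held 1 peak, out of 940 and 542 (EGS replicates 1 and 2) and 3431 (non-EGS). The Flag list of line 4a3 held 1 of 883.

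**Figure D1:**
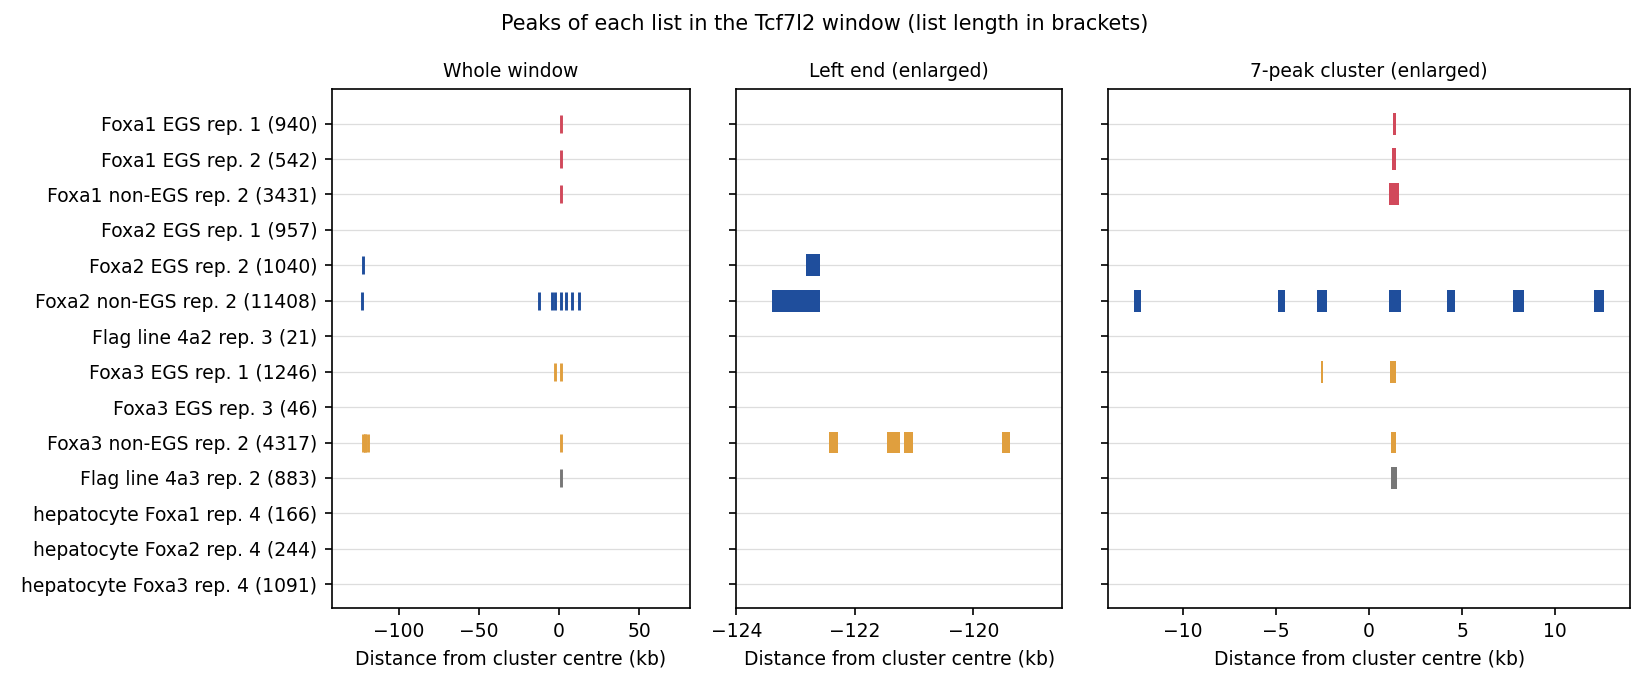
Peaks of the 14 lists over the Tcf7l2 window, 1 row per list, against distance from the centre of the 7-peak cluster in kb. The left panel marks positions only, and the other panels draw peak widths to scale. Only 1 column of the cluster, at about 1.3 kb from its centre, is filled in 7 lists, and the hepatocyte rows are empty.

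The 6 lists without a peak were Foxa2 EGS replicate 1 (957 peaks), Foxa3 EGS replicate 3 (46 peaks), the Flag list of line 4a2 (21 peaks) and the hepatocyte lists for Foxa1, Foxa2 and Foxa3 (166, 244 and 1091 peaks). Read depth behind the lists is unknown. At the pooled rate of all lists, 0.76 window peaks per 1000, the hepatocyte lists would hold 0.126, 0.185 and 0.829 peaks. Foxa2 EGS replicate 1 would hold 0.727, Foxa3 EGS replicate 3 0.0349 and the Flag list of line 4a2 0.016. That rate includes the peaks on which the window was chosen. Whether the empty windows go with list length was not tested. Per 1000 peaks of a list, the Foxa2 non-EGS list gave 0.701 window peaks and the Foxa3 non-EGS list 1.16. The 8 Foxa2 peaks were thus no larger a share of their list than the 5 Foxa3 peaks were of theirs.

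In the Foxa2 non-EGS list the cluster was the longest run of peaks. Its 7 peaks were chained by gaps of at most 10 kb over 25.3 kb and covered 13.7% of that span. The gaps were 7.38, 1.71, 3.32, 2.5, 3.15 and 3.72 kb, in order along the chromosome. Of all peaks in that list, 26.6% had another peak within 10 kb, and 7 of the 8 in the window did. The window was chosen on this run of 7, so the 7 of 8 was fixed by that choice. Most runs were short, with 8377 single peaks, 1093 pairs, and 13 runs of 5. The 2 runs of 6, named here after their values were seen, lay on chromosome 16 (93715998 to 93743521) and chromosome 6 (99109879 to 99125472). A gap limit of 5 kb kept 6 peaks in the run, again the longest of the list. With 20 kb it kept 7, and 8 runs then held as many peaks or more, up to 8 peaks.

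**Figure D2:**
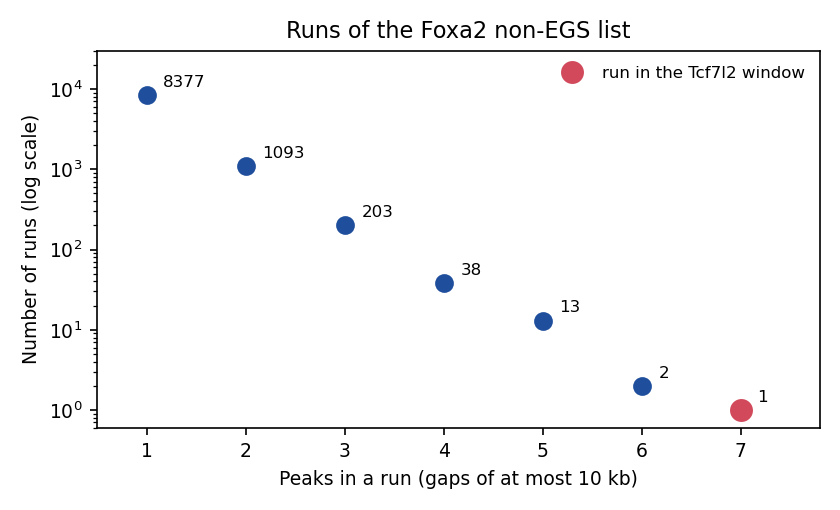
Number of runs (log scale) against the number of peaks in a run, for the Foxa2 non-EGS list with gaps of at most 10 kb. The run of 7 in the Tcf7l2 window is the single point at the right, against 2 runs of 6 and 13 runs of 5.

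By number of peaks in a stretch as wide as the window, the locus was less far from the rest of the list. Stretches of 220 kb were started at each of the 11408 peaks, so neighbouring stretches overlap. Of these, 2.59% (295) held 8 peaks or more. The median was 2 peaks and the highest count was 14.

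The 7 peaks of the cluster ran through nearly the whole range of scores in their list. Scores are those the authors deposited, on an unstated scale, so ranks and percentiles are within a list, with 100 at the top. From left to right the percentiles were 10.3, 34.2, 67.4, 91.8, 51.9, 96.6 and 19.4. The fourth peak (chr19:55940062-55940670) ranked 930 of 11408, and the sixth (chr19:55946721-55947321) ranked 386. The first (chr19:55926355-55926727) ranked 10230, and the seventh (chr19:55951042-55951606) ranked 9191. So the cluster joined 2 peaks of the top 10% of the list with 2 of the lowest 20%. Its median percentile, 51.9, was near the middle of the list. The runs of 6 peaks had similar medians, 55.9 on chromosome 16 and 42.4 on chromosome 6.

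Widths in the cluster were 373, 361, 556, 609, 400, 601 and 565 bp, from left to right, against a list median of 458 bp. The peaks at chr19:55934111-55934471, chr19:55936185-55936740 and chr19:55943169-55943568 make up the rest. Width did not follow score throughout: the seventh peak was wider than 79.0% of its list but lay at the 19.4 score percentile.

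**Figure D3:**
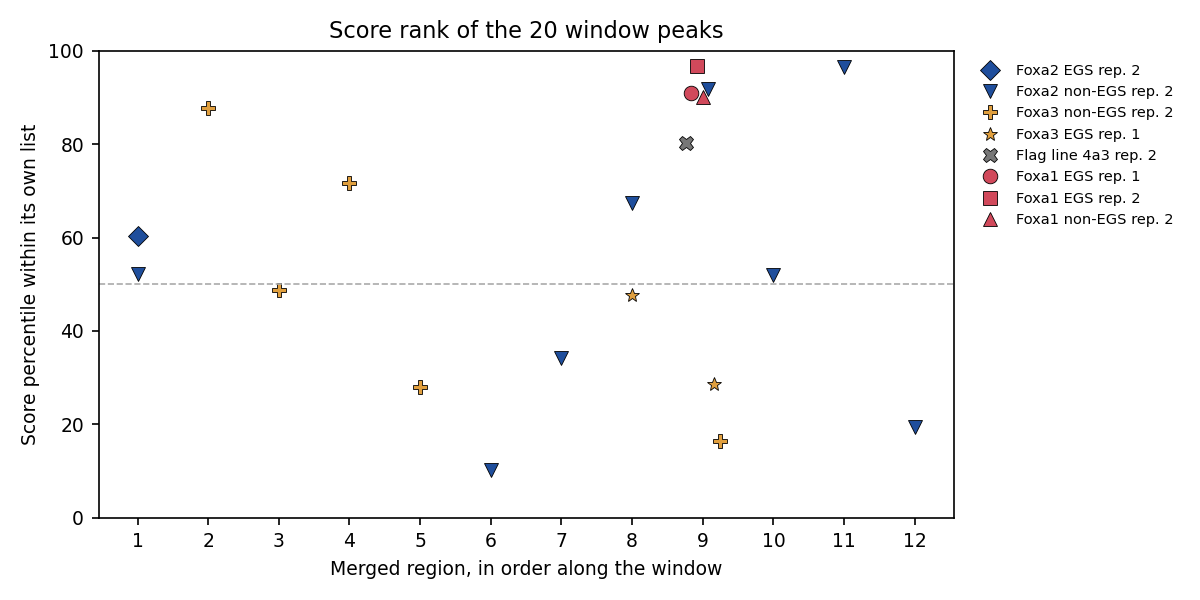
Score percentile of each of the 20 window peaks within its own list, against the 12 merged regions numbered along the window. The dashed line marks the 50th percentile. In region 9 the Foxa1, Foxa2 and Flag peaks lie between 80.4 and 96.8, and the Foxa3 peaks lie at 28.6 and 16.4.

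The most widely shared site of the cluster was region 9 (chr19:55940062-55940670). It held a peak in 7 lists: all 3 Foxa1 lists, the Foxa2 non-EGS list, Foxa3 EGS replicate 1, the Foxa3 non-EGS list and the Flag list of line 4a3. That is 6 of the 9 iHep Foxa lists, with every line represented. Of the 18022 merged regions of the series, 0.877% (158) were held by 7 lists or more. The same 7 lists and no other held 4 regions, this one included, and 32 regions held at least these lists.

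The lists placed the site at nearly the same point. All 7 peaks had 143 bp in common (55940265 to 55940407), and the 6 others lay wholly inside the Foxa2 non-EGS peak. Their centres lay 9 to 95.5 bp to the left of its centre. Widths were 185 and 210 bp in Foxa1 EGS replicates 1 and 2, 538 bp in the Foxa1 non-EGS list, 286 bp in Foxa3 EGS replicate 1, 263 bp in the Foxa3 non-EGS list and 279 bp for Flag. All 7 were wider than the median of their own list.

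The shared site ranked high in the Foxa1 lists and low in the Foxa3 lists, with no test of the difference. It lay at the 90.9, 96.8 and 90.1 percentile of the Foxa1 lists (EGS replicates 1 and 2, non-EGS), with ranks 80 of 940, 18 of 542 and 341 of 3431. In the Foxa2 non-EGS list it lay at 91.8 and in the Flag list of line 4a3 at 80.4. In the Foxa3 lists it lay at 28.6 (rank 889 of 1246, EGS replicate 1) and 16.4 (rank 3559 of 4317, non-EGS). The Foxa1 values therefore all lay above the Foxa3 values. The Flag list, from the Foxa3 line, lay nearer to the Foxa1 lists in rank than to the Foxa3 lists of its own line.

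Other widely shared regions gave a reference for these ranks. Over the regions held by 7 lists or more, the median percentile was 63.0 in Foxa3 EGS replicate 1 (105 regions) and 71.6 in the Foxa3 non-EGS list (97 regions). The Tcf7l2 site stood below both medians, with 19 of the 105 and 11 of the 97 regions at or below it, itself included. In Foxa1 EGS replicates 1 and 2 and the Foxa1 non-EGS list the medians were 81.2, 56.2 and 86.3, and the site stood above each. There 105 of 152, 104 of 119 and 72 of 130 regions stood at or below it, so the margin was small in the non-EGS list. In the Foxa2 non-EGS list the median was 96.6, above the site. For the Flag list of line 4a3 the median was 85.6 (135 regions), also above the site at 80.4, with 54 regions at or below it. Against this reference the Flag list thus had the site below its median, as the Foxa3 lists did and the Foxa1 lists did not. These regions were themselves picked from the same lists, so the medians are a description.

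Neither Foxa2 EGS list held the shared site, although the Foxa2 non-EGS list and all 3 Foxa1 lists did. Of the 932 Foxa2 non-EGS peaks ranked as high or higher, 46.8% overlapped a peak of a Foxa2 EGS list. Of the 205 Foxa2 non-EGS peaks that all 3 Foxa1 lists overlapped, 26.3% (54) had no Foxa2 EGS peak. The Tcf7l2 site was 1 of these 54. Most titles end in a code, with or without a leading letter, whose meaning the labels do not state. Foxa1 EGS replicate 1, which held the site, has the same digits in that code as both Foxa2 EGS libraries, which did not. The Flag library of line 4a3 has the code of Foxa3 EGS replicate 1. Whether the code marks a batch is unknown, and a link between the code and the missing Foxa2 EGS peaks was not tested.

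Of the 7 peaks of the cluster, 5 were found in no other list and 2 were shared. In the runs of 6 peaks on chromosomes 16 and 6, 3 and 2 peaks were shared with another list. Of the 8 Foxa2 non-EGS peaks in the window, 3 overlapped a peak of another list, near the 31.7% of all 11408 peaks that did. By list, the background share was 7.28% for Foxa1 EGS replicate 1, 3.3% for replicate 2 and 21.5% for Foxa1 non-EGS, against 1 of 8 window peaks each. It was 5.19% for Foxa3 non-EGS and 4.15% for the Flag list of line 4a3, again against 1 of 8. For Foxa2 EGS replicate 2 it was 7.4% against 1 of 8, and for replicate 1 it was 7.22% against 0 of 8. For Foxa3 EGS replicate 1 it was 2.26% against 2 of 8. Hepatocyte lists overlapped 0.745% of the list and 0 of the 8. No test was run on these counts out of 8.

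The sixth peak of the cluster, chr19:55946721-55947321, was the highest-scoring window peak of its list and was in no other list. Sharing in the Foxa2 non-EGS list rose with rank, from 10.7% of peaks under the 10th percentile to 84.4% of those above the 90th. Of the 388 peaks ranked as high as the sixth peak or higher, 6.19% (24) were in no other list. Down to the rank of the most widely shared site, 87.1% of 932 were in another list. The sixth peak, 601 bp wide, was called in 1 library only, so it has no replicate check.

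**Figure D4:**
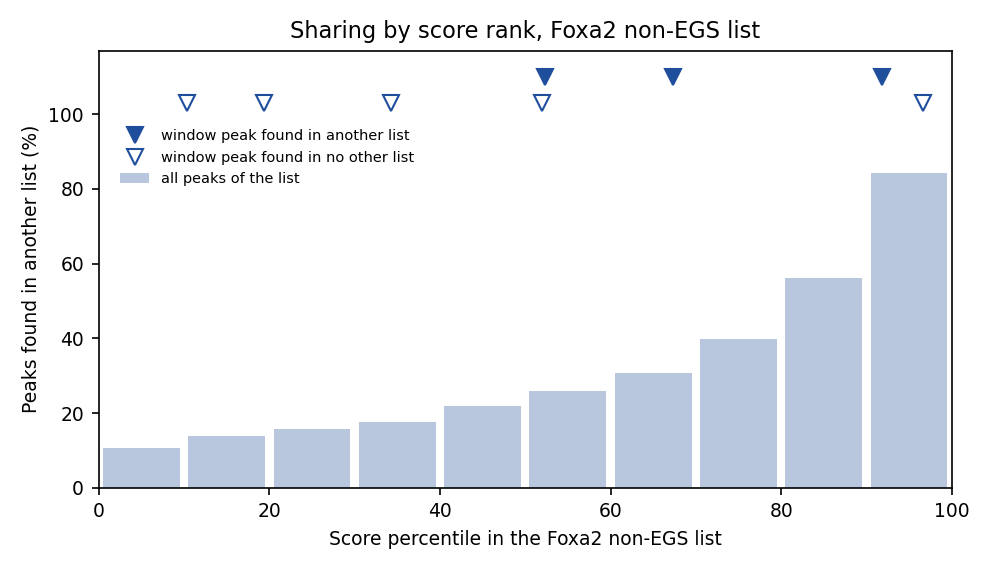
Share of Foxa2 non-EGS peaks found in any other list (bars, %) against score percentile in steps of 10, with the 8 window peaks as triangles above (filled and upper row: found in another list, open and lower row: not). The open triangle at 96.6 sits over the top step, where 84.4% of peaks were shared.

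The third peak of the cluster was the only other one that another list held. Foxa3 EGS replicate 1 gave a peak of 107 bp (chr19:55936416-55936522) inside the Foxa2 non-EGS peak of 556 bp. It lay at the 47.7 percentile of the Foxa3 list, above the 28.6 of the shared site in the same list. In the Foxa2 non-EGS list the order was the reverse, at 67.4 and 91.8.

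At the left end of the window Foxa2 and Foxa3 peaks lay side by side without overlap. The Foxa2 non-EGS peak (chr19:55815579-55816386) was 808 bp wide, wider than 97.7% of its list, and lay at the 52.3 score percentile. Foxa2 EGS replicate 2, with the same culture number in its title, held a peak of 238 bp (chr19:55816154-55816391) at the 60.2 percentile, and 233 bp were common to both. The first Foxa3 non-EGS peak began after a gap of 159 bp from that EGS peak, to its right. No Foxa1 list held a peak here.

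The Foxa3 non-EGS list had 4 peaks at this end within 3.04 kb, at chr19:55816551-55816695, chr19:55817526-55817740, chr19:55817811-55817956 and chr19:55819466-55819594. Of these, 3 were narrower than the list median of 180 bp, at 145, 146 and 129 bp, and the second was wider. Their score percentiles were 87.6, 48.8, 71.6 and 28.0, all above the 16.4 of the shared site in that list. None of the 4 overlapped a peak of another list, so 1 of the 5 Foxa3 non-EGS window peaks was shared, against 27.6% of the whole list. Runs of 4 or more held 30.4% of that list's peaks. They made up 201 of its 2540 runs, with single peaks counted as runs, and the longest held 35 peaks. Run lengths of the Foxa3 and Foxa2 non-EGS lists were not compared, because the window was chosen on the Foxa2 run of 7. The gaps differed in size, with 70 to 1509 bp between these Foxa3 peaks and 1.71 to 7.38 kb between the Foxa2 peaks of the cluster.

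The edges of the window did not cut through a group of peaks. The nearest Foxa2 non-EGS peaks outside lay 104.4 kb to the left (chr19:55694961-55695569, score percentile 98.4) and 668.6 kb to the right (chr19:56688650-56689111, percentile 35.6). Inside the window, the outermost peaks of that list lay at the 52.3 percentile on the left and 19.4 on the right. The region to the left also held peaks of the Foxa1 non-EGS list and of Foxa2 EGS replicate 1, at the 58.2 and 52.3 percentile of those lists.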

How the data were processed

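Peak lists of 14 ChIP-seq libraries were used, and the 10 input libraries were not analysed here. Per the labels' lists of tools, the submitters' processing notes name BWA 0.6.2, MACS2 2.1.0, bedtools 2.16.2 and build mm9, with no role or setting. The sources used here give neither the calling threshold nor any use of input. Each deposited line holds a chromosome, start, end, name and score, and the deposited score has no stated scale. Its lowest value is 50.0 in the Flag list of line 4a3 and near 5 in the others, so scores only ranked peaks within a list.

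Starts were written 1-based. Peaks of different lists were shared, and merged into regions, when they overlapped by at least 1 bp. A run is a chain of peaks of 1 list with gaps of at most 10 kb. Ranks count from the highest score, and tied peaks take the best rank of the tie. A percentile counts from the lowest score, as the rank less 0.5 over the list length, and tied peaks take the mean rank of the tie. Python 3.11.15, numpy 2.4.6 and pandas 2.3.3 were used, and the overlap, merging and run functions were tested on simulated intervals. Replicate numbers are culture numbers in the titles, which the labels do not say are separate inductions.

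The window, its cluster and the rules were chosen with earlier results of these data known, so nothing was tested. Named were the peaks of the cluster, the regions of 2 or more lists and long runs. The planned list of Wnt pathway genes needs mm9 annotation and was not analysed here. The promoter motifs were chosen after the sequences were seen. Alternatives covered overlap, score limits, merging, the window's edges and left-out libraries.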

Additional observations from a re-analysis of the deposited data

How the results depend on the processing

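Requiring an overlap of 50% of the narrower peak left the 12 merged regions, the 3 regions found in 2 or more lists and the 3 shared Foxa2 non-EGS peaks as they were. Among the top-scoring 50% of each list there were 12 peaks in 7 regions, the cluster kept 4 peaks, and 0 Foxa2 non-EGS window peaks overlapped a Foxa3 non-EGS peak. Among the top 300 peaks of each list 3 peaks were left, in 1 region that 2 or more lists held (1 region), and the Foxa2 non-EGS list had 0 in the window, hence 0 in the cluster and 0 overlaps with any other list or with the Foxa1 or Foxa3 non-EGS list. Merging peaks that lay within 1 kb of each other gave 9 regions, and 3 were still in 2 or more lists. The joined peaks were at the left end, where Foxa2 and Foxa3 non-EGS peaks then shared 1 region. The cluster alone held 7 regions. EGS libraries alone gave 6 peaks in 3 regions, 1 of them in 2 or more lists. Non-EGS libraries alone gave 1 region in 2 or more lists, and 1 Foxa2 non-EGS peak found in another list. Leaving out each library in turn gave 12 to 20 peaks, 7 to 12 regions and 1 to 3 regions in 2 or more lists. The lowest values came without the Foxa2 non-EGS library. The same omissions gave 2 to 3 shared Foxa2 non-EGS window peaks, 1 overlap each with the Foxa1 and Foxa3 non-EGS lists, a median score percentile of 52.1 and 7 cluster peaks. Results on the Foxa2 non-EGS list have no value without that library or with EGS libraries only. No paired analysis was possible because the results come from no test. Read depth is unknown, and the shortest lists held 21 and 46 peaks.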
